A study of Mus musculus with 8 samples.

Results

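Nucleic acid-sensing Toll-like receptors (TLRs) are delivered to endosomes by dedicated transport proteins and signal through a shared adaptor and its kinases. The 9 genes described here encode that equipment: Unc93b1, Slc15a3, Slc15a4, Myd88, Irak1, Irak2, Irak3, Irak4 and Traf6. They were chosen by name, as the rows of the count table whose Ensembl identifier carries one of these symbols. The rule itself uses no measured value, but the 9 genes and the pathway lists below were chosen with earlier results of these data known. Their shares of called genes are therefore not independent of the data. All 9 were found among the 56748 rows of the table, and all 9 passed the filter on low counts, which left 16780 genes for testing.

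Unc93b1 escorts the endosomal receptors from the endoplasmic reticulum to endosomes, and without it these receptors do not signal. Slc15a3 and Slc15a4 are proton-coupled transporters of histidine and oligopeptides in the endolysosomal membrane, and Slc15a4 is needed for TLR7 and TLR9 responses. Myd88 is the adaptor of every TLR except TLR3 and of the interleukin-1 receptor family. It assembles with the kinases Irak4, Irak1 and Irak2 and hands the signal to the ubiquitin ligase Traf6, while Irak3 (IRAK-M) is best known in macrophages as a brake on this complex.

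RNA had been sequenced from cells of mouse inguinal fat pads, the subcutaneous fat of the groin. Wild-type females, whose age is not given in the sources used here, were treated on shaved back skin on 3 days in a row. The Aldara group received about 62.5 mg of a cream with 5% imiquimod, a TLR7 agonist, the Vehicle group received control cream, and tissue was collected 24 h after the last dose. Each group holds 4 libraries, called Vehicle 1 to 4 and Aldara 1 to 4 by their replicate numbers. Cells were enriched with beads against F4/80, a macrophage surface protein. Each library pools cells of 6 fat pads, about 30000 cells, with more than 90% reported positive for F4/80 and CD64, so a library is an average over pads. The labels do not say that the pools came from separate animals, and p-values therefore measure only the spread between these pools.

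Total counts per library ran from 19537607 to 34471508, and the 9 genes had between 372 and 18988 counts in a library. Levels are CPM, counts relative to the TMM-scaled library size, given as mean ± SD with n = 4 libraries. The markers of the labelled cell type were present beside high levels of epithelial transcripts. The summed level of 12 macrophage genes was 992 to 1954 in Vehicle and 2169 to 5565 CPM in Aldara. Ptprc, the pan-leukocyte CD45, was at 41.6 ± 6.50 in Vehicle and 151 ± 62.8 CPM in Aldara, and the keratin Krt8 stood at 4143 ± 935 and 4175 ± 586 CPM. Summed levels of 7 epithelial genes were 9371 to 13113 in Vehicle and 9880 to 12844 CPM in Aldara, and none of the 7 was called in either direction. Epithelial transcripts were thus plentiful in both groups, and their sums were above those of the macrophage genes despite the reported share of positive cells. The source of the epithelial RNA was not tested. Every CPM below is an average over the whole pool and cannot be read as a level in macrophages alone. In such bulk samples, fewer cells of a type and less RNA per cell cannot be told apart.

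Of the 9 genes, 4 rose with Aldara and none fell (edgeR quasi-likelihood test, adjusted p under 0.05 over all tested genes). Unc93b1, Slc15a3 and Irak3 rose by 2.68-fold to 5.38-fold and Irak4 by 1.32-fold. Among all tested genes, 6.98% rose and 3.86% fell. The median log2 fold change of the 9 genes was 0.41, against 0.0058 over all tested genes. Myd88, Irak1 and Traf6, the adaptor, its kinase and the ligase downstream, had log2 fold changes between -0.07 and 0.19 and were not called. At an unadjusted p under 0.05 there were 7 of the 9, all higher in Aldara, as were 14.4% of all tested genes. The labels do not say that equal replicate numbers pair the libraries. They were taken as pairs because deviations from the group means correlated within each number in these data. With these numbers as a block in the fit, Slc15a4 and Irak2 were called as well. This gave 6 risen and 0 fallen genes, against 9.21% and 6.14% of all tested genes. DESeq2 called 5 of the 9 risen and none fallen, against 9.18% of all tested genes. In 5 of the 9 genes every Aldara library lay above every Vehicle library, as in 9.97% of tested genes, and in 0 of the 9 the order was the opposite, as in 7.79%.

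**Figure D1:**
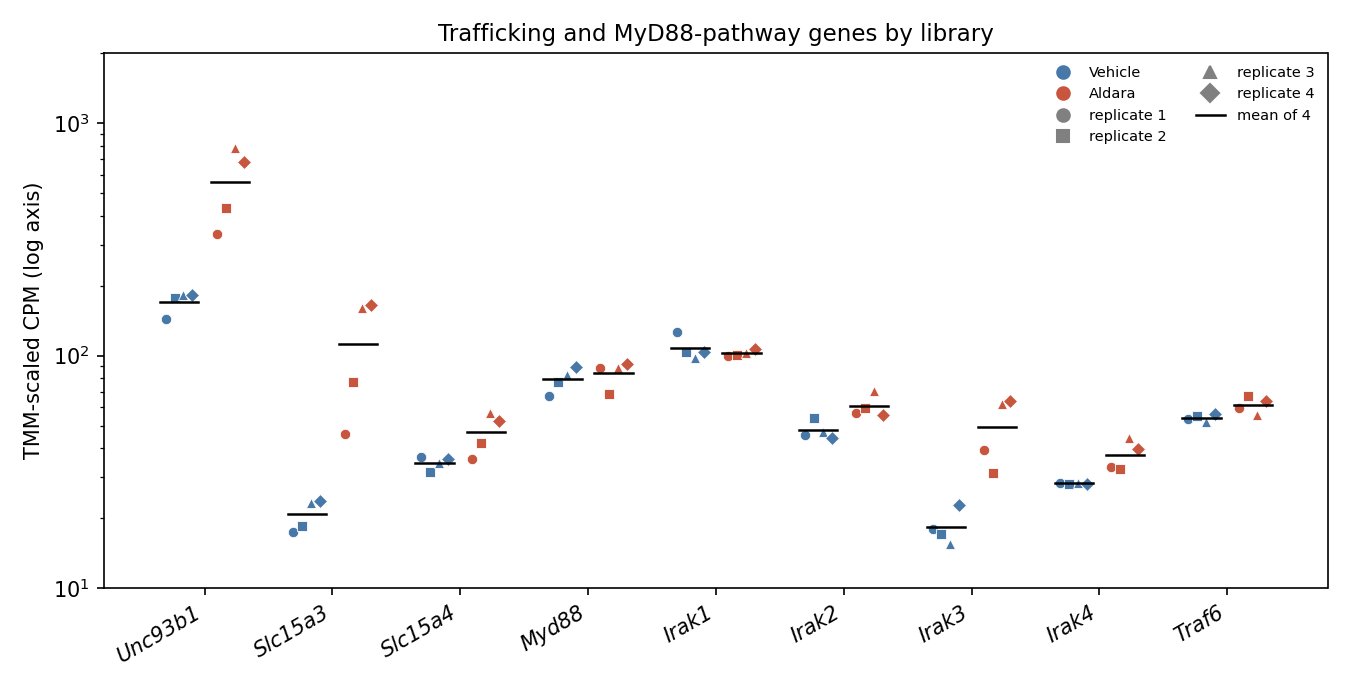
TMM-scaled CPM (log axis) of the 9 genes in each library, with Vehicle in blue and Aldara in red, symbols by replicate number and a bar at the mean of 4. The groups are apart for Unc93b1, Slc15a3, Irak2, Irak3 and Irak4, and Aldara 1 and 2 lie below Aldara 3 and 4 for the 3 genes with the largest changes.

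Unc93b1 (chr19:3935186-3949340, plus strand, GRCm38, GENCODE M21) had the highest level of the 9 genes. Its level was 143, 176, 182 and 182 CPM for Vehicle 1 to 4, and 332, 432, 782 and 680 CPM for Aldara 1 to 4. Every Aldara library exceeded every Vehicle library, and the treated libraries spread 2.36-fold among themselves. The mean went from 171 ± 18.5 to 556 ± 210 CPM, a log2 fold change of 1.70 (SE 0.25, edgeR adjusted p = 0.00505). No exon of Unc93b1 overlaps that of another annotated gene.

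Slc15a3 (chr19:10839727-10859362, plus strand) showed the largest fold change of the 9. Its level was 17.4, 18.5, 23.4 and 23.7 CPM in the Vehicle libraries and 46.2, 76.9, 160 and 165 CPM in the Aldara libraries. The groups did not overlap, and Aldara 3 and 4 were more than double Aldara 1 and 2. The mean rose from 20.8 ± 3.25 to 112 ± 59.7 CPM, or by 2.43 on the log2 scale (SE 0.38, edgeR adjusted p = 0.00629). The library kit does not mark the strand, and 1541 bases of Slc15a3, 28.1% of its exonic length, lie opposite exons of Tmem132a, so reads from this stretch cannot be told apart. Tmem132a itself, looked up for this overlap, went from 53.0 ± 5.11 to 70.8 ± 11.4 CPM (log2 fold change 0.42, edgeR adjusted p = 0.0479).

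Slc15a4 (chr5:127595664-127632897, minus strand) is the close relative of Slc15a3 in the same family and stood above it per kilobase in every Vehicle library. Slc15a4 stood at 36.7, 31.5, 34.5 and 35.9 in Vehicle and at 35.9, 42.0, 56.6 and 52.3 CPM in Aldara. Aldara 1 fell within the Vehicle range and the other treated libraries lay above it. The log2 fold change was 0.43 (SE 0.13), and the edgeR adjusted p was 0.0639. With the replicate block the edgeR adjusted p was 0.0482, and without Aldara 1 it was 0.0109, with a log2 fold change of 0.54.

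Myd88 (chr9:119335934-119341411, minus strand) kept its place as an abundant transcript with no called change. Its level was 66.9, 77.3, 82.8 and 89.1 in Vehicle and 88.8, 68.6, 88.3 and 92.4 CPM in Aldara. The groups overlapped almost fully, with Aldara 2 near the bottom of the Vehicle range. The log2 fold change was 0.10 (SE 0.12, edgeR adjusted p = 0.665), and it stayed between 0.02 and 0.18 when any single library was left out. Myd88 shares 290 bases (11.3% of its exonic length) with Acaa1a on the other strand, and reads from this stretch cannot be told apart. Acaa1a had the higher level, at 131 ± 7.29 in Vehicle and 137 ± 10.3 CPM in Aldara (log2 fold change 0.064, edgeR adjusted p = 0.699).

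Irak4 (chr15:94543643-94581815, plus strand) is the kinase that acts first in the complex. Irak4 was at 28.4, 28.1, 28.4 and 28.1 in Vehicle, the tightest group of the 9 genes, and at 33.1, 32.7, 44.1 and 39.8 CPM in Aldara. The Vehicle values came from 606 to 1005 counts, and their SD of 0.179 CPM is below the counting noise at such counts. That tightness is therefore not read as a trait of the gene. All treated libraries were above all controls, by a small margin for Aldara 1 and 2. This was a log2 fold change of 0.41 (SE 0.11, edgeR adjusted p = 0.0342). This call was lost with upper-quartile scaling (adjusted p = 0.0528). It was also lost without Vehicle 1 (adjusted p = 0.0746), Vehicle 2 (0.0805), Vehicle 3 (0.062) or Vehicle 4 (0.0767), and without Aldara 3 (0.091) or Aldara 4 (0.113). The log2 fold change ranged from 0.32 to 0.46 over the fits with 1 library left out.

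Irak1 (chrX:74013914-74023918, minus strand), the kinase that Irak4 phosphorylates, had the highest level per kilobase of the IRAK family in both groups. Its level was 126, 104, 97.2 and 104 in Vehicle and 100, 100, 103 and 107 CPM in Aldara. The treated libraries agreed within 1.07-fold and lay inside the Vehicle range. Its log2 fold change of -0.07 (SE 0.09, edgeR adjusted p = 0.687) became 0.011 without Vehicle 1, the highest of the control libraries.

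Irak2 (chr6:113638467-113695026, plus strand) sustains late signalling in the same complex. Irak2 was at 45.4, 53.9, 47.2 and 44.2 in Vehicle and at 56.7, 59.6, 70.4 and 55.4 CPM in Aldara. The groups did not overlap, although Vehicle 2 and Aldara 4 were close. Its log2 fold change was 0.34 (SE 0.10) and the edgeR adjusted p, 0.0513, missed the threshold. The adjusted p was 0.032 with the replicate block, 0.0391 with DESeq2 and 0.048 without Vehicle 2.

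Irak3 (chr10:120141648-120202130, minus strand), the kinase-like inhibitor, was the member of its family with the largest change. Its level was 17.9, 17.1, 15.4 and 22.7 in Vehicle and 39.4, 31.2, 61.9 and 64.1 CPM in Aldara. No treated library overlapped the controls, and Aldara 1 and 2 were again the lower pair. The mean went from 18.3 ± 3.12 to 49.1 ± 16.4 CPM, a log2 fold change of 1.42 (SE 0.24, edgeR adjusted p = 0.00735). Irak3 shares 192 bases (5.22% of its exonic length) with Tmbim4 on the other strand, and Irak4 shares 395 bases (7.87%) with Twf1. Neither neighbour was called (log2 fold change -0.10 for Tmbim4 and 0.12 for Twf1).

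Traf6 (chr2:101678429-101701669, plus strand), the ubiquitin ligase at the end of the complex, stood at 53.4, 55.1, 51.7 and 56.2 in Vehicle and 59.3, 67.1, 55.5 and 64.1 CPM in Aldara. Aldara 3 lay within the Vehicle range and the other treated libraries above it. Traf6 had a log2 fold change of 0.19 (SE 0.08), with an unadjusted p of 0.0454 and an edgeR adjusted p of 0.18.

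The start regions of 3 of these genes are shown because their transcripts moved differently: Irak3 rose most in its family, Irak4 rose slightly and Myd88 was not called. Each is 300 bases from 250 before to 50 after a transcription start in RefSeq (GRCm38.p6), written 5′ to 3′ on the strand of the gene, and capitals mark a match to a searched motif. RefSeq windows were matched for 7 of the 9 genes. None was matched for Slc15a3 and Unc93b1, which had the largest changes, so their start regions could not be shown. The windows are chr10:120202081-120202380 (minus strand) for Irak3, chr15:94543410-94543709 (plus strand) for Irak4 and chr9:119339969-119340268 (minus strand) for Myd88.
Irak3: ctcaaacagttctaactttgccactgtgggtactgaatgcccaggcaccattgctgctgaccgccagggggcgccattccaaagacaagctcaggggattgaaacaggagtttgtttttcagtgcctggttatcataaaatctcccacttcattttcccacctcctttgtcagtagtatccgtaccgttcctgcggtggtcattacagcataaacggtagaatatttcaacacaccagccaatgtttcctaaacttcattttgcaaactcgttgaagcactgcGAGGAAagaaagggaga
Irak4: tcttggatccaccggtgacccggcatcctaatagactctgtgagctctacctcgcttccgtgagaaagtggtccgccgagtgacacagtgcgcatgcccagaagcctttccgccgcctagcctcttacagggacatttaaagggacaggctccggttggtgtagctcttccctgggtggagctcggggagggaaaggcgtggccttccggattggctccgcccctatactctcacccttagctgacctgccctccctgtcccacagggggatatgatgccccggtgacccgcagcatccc
Myd88: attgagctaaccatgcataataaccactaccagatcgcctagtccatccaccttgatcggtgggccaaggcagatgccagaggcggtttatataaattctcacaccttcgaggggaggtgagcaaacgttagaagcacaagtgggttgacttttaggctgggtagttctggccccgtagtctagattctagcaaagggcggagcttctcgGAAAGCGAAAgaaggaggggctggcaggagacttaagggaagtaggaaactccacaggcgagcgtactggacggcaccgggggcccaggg
On both strands, 3 motifs were searched: the interferon response core (GAAA, any 2 bases, GAAA), which interferon regulatory factors bind, the kappaB consensus of NF-kappaB, and GAGGAA, the ETS core bound by the macrophage factor PU.1. Of 32851 promoter windows, 3.44% held the interferon response core, 4.51% the kappaB consensus and 28.3% GAGGAA. The Irak3 window held 1 GAGGAA, beginning 33 bases after the start, and its other annotated start held none of the motifs. The Myd88 window held 1 interferon response core, beginning 40 bases before the start, and none of the 3 motifs was found in the Irak4 window. In the windows not printed, Traf6 held 2 GAGGAA matches, and Slc15a4, Irak1 and Irak2 held no match. No 2 matches overlapped. A match is only a run of letters, and no binding was measured.

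Per kilobase of exon (union of GENCODE M21 exons, an annotation that may differ from the one used for counting), Unc93b1 led in both groups. In Vehicle it stood at 56.3 ± 6.10 CPM per kb, above Myd88 at 30.7 ± 3.66 and Irak1 at 22.9 ± 2.64 CPM per kb. The ranges of Myd88 and Irak1 touched, and both lay above Irak2 at 10.8 ± 0.985 CPM per kb. Traf6 (6.86 ± 0.251) and Slc15a4 (6.52 ± 0.428 CPM per kb) overlapped, as did the lowest of the order, Irak4 (5.63 ± 0.0356) with Irak3 (4.98 ± 0.849), and Irak3 with Slc15a3 (3.78 ± 0.592 CPM per kb). In Aldara, Unc93b1 was at 184 ± 69.2 CPM per kb and Myd88 at 32.8 ± 4.17 CPM per kb, each apart from its next neighbour. Slc15a3 moved from the last place to the fourth (20.4 ± 10.9 CPM per kb), and from Irak1 (21.8 ± 0.654) down to Irak4 (7.45 ± 1.10 CPM per kb) each gene overlapped the next in range.

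The balance between family members within a library does not depend on how libraries are scaled. It is still an average over all cells of a pool. Whether the mix of cells had a part in the ratios and shares below was not tested. The log2 ratio of Slc15a3 to Slc15a4 counts was -1.07, -0.77, -0.56 and -0.59 in Vehicle 1 to 4 and 0.36, 0.87, 1.496 and 1.66 in Aldara 1 to 4. The sign of the ratio separated the groups: Slc15a4 had more counts than Slc15a3 in each control library and fewer in each treated one. The difference of means was 1.84, a 3.59-fold shift (two-sided exact permutation test, p = 0.0286, the smallest that 4 against 4 libraries allow, and 0.0333 adjusted over 7 pairs). Per kilobase, Slc15a3 made up 36.6 ± 3.71% of the pair in Vehicle and 67.0 ± 9.16% in Aldara, while the summed level of the pair went from 10.3 ± 0.781 to 29.2 ± 12.6 CPM per kb.

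Within the IRAK family the shift was towards Irak3. The log2 ratio of Irak3 to Irak1 counts was -2.81, -2.60, -2.65 and -2.19 in Vehicle and -1.34, -1.69, -0.74 and -0.73 in Aldara. The groups were apart, with a difference of 1.44. Irak3 also gained on Irak2 by 1.03 and on Irak4 by 0.98, and Irak2 and Irak4 gained on Irak1 by 0.41 and 0.46, each with groups that did not overlap (exact permutation p = 0.0286, adjusted 0.0333). Irak4 against Irak2 was the exception, with a difference of 0.052, overlapping groups and an exact permutation p of 0.686. These pairs share genes and libraries and are not independent of each other. With pairing by replicate number or with 1 library left out, the smallest p these designs allow is 0.125 and 0.0571, so neither can pass the threshold.

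As shares of the summed IRAK level per kilobase, Irak1 went from 51.5 ± 3.11% to 39.0 ± 3.77% and Irak3 from 11.3 ± 1.90% to 23.3 ± 5.36%. Irak3 ranged from 10.2% to 14.1% in the controls and from 17.0% to 28.8% in the treated libraries. The shares of Irak2 (24.5 ± 2.69% and 24.5 ± 2.70%) and Irak4 (12.7 ± 0.757% and 13.2 ± 0.435%) differed between the groups by less than their spread. The summed level of the 4 transcripts was 44.3 ± 2.61 CPM per kb in Vehicle and 56.3 ± 6.73 CPM per kb in Aldara.

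**Figure D2:**
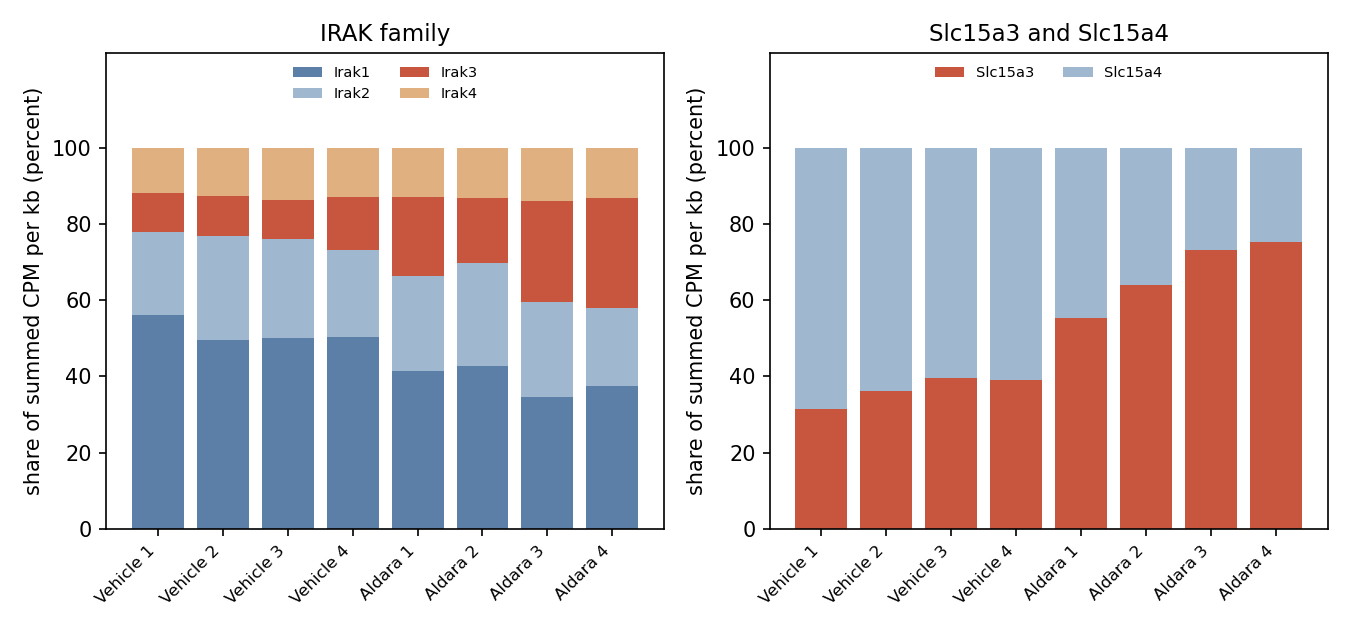
Stacked shares (percent of the summed CPM per kb) of the 4 IRAK transcripts (left) and of Slc15a3 and Slc15a4 (right) in each library. Irak3 takes 10.2% to 14.1% in Vehicle and 17.0% to 28.8% in Aldara, and Slc15a3 takes 31.5% to 39.6% and 55.4% to 75.4%.

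Macrophage transcripts as a class were higher in the Aldara libraries, so each gene was also set against them. The reference was the geometric mean of 12 macrophage genes (Ptprc, Csf1r, Cd68, Tyrobp, Fcer1g, Laptm5, Aif1, Lyz2, Spi1, Cd53, Mpeg1 and Lcp1), of which 10 rose and none fell. It was 47.8, 64.4, 83.4 and 65.0 in Vehicle and 113, 165, 298 and 272 CPM in Aldara, a difference of means of 1.62 on the log2 scale. The reference, like 6 of the 9 genes, had its lowest treated values in Aldara 1 and 2. The gate markers did not move alike: Adgre1, which encodes F4/80, rose from 82.5 ± 20.4 to 967 ± 476 CPM (log2 fold change 3.55, edgeR adjusted p = 0.0021), while Fcgr1, which encodes CD64, was at 19.7 ± 1.85 and 26.5 ± 12.3 CPM (0.42, adjusted p = 0.436). Scaled to this reference, 91.6% of all tested genes were lower in Aldara and 0.369% higher, and the values below read against that shift, whose median over all genes was -1.52 on the log2 scale.

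Unc93b1 moved with the reference. Its log2 ratio to the reference was 1.58, 1.45, 1.12 and 1.48 in Vehicle and 1.56, 1.39, 1.39 and 1.32 in Aldara. The groups overlapped, and the log2 fold change relative to the reference was -0.0017 (SE 0.42, edgeR adjusted p = 0.997). The SE allows a change of either sign, and the treated ratios had the narrower spread (SD 0.10 against 0.20). Irak3 was close to the reference too, with a relative log2 fold change of -0.26 (SE 0.41, edgeR adjusted p = 0.536) and overlapping ratios.

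Slc15a3 was the only one of the 9 genes with every treated ratio above every control ratio, an order seen in 0.584% of tested genes. Its log2 ratio was -1.45, -1.80, -1.84 and -1.45 in Vehicle and -1.28, -1.10, -0.90 and -0.72 in Aldara. The gap between the groups was narrow at Aldara 1. The relative log2 fold change was 0.64 (SE 0.41), with an edgeR adjusted p of 0.122, of 0.00782 with the replicate block and of 0.0341 without Aldara 1. An exact permutation test of the 8 ratios, chosen after seeing the data, gave p = 0.0286, unadjusted and the smallest it can give.

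The other 6 genes were lower relative to the reference. Slc15a4, Myd88, Irak1, Irak2, Irak4 and Traf6 had relative log2 fold changes between -1.65 (Irak1, edgeR adjusted p = 0.0004) and -1.20 (Irak4, edgeR adjusted p = 0.00483). In all 6, every treated ratio was below every control ratio, which held for 77.9% of tested genes (exact permutation p = 0.0286 for each, unadjusted). A share of 6 in 9 is no larger than that of all tested genes. Whether the larger macrophage signal of the treated libraries had a part in the higher CPM of Unc93b1, Slc15a3 and Irak3 was not tested.

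**Figure D3:**
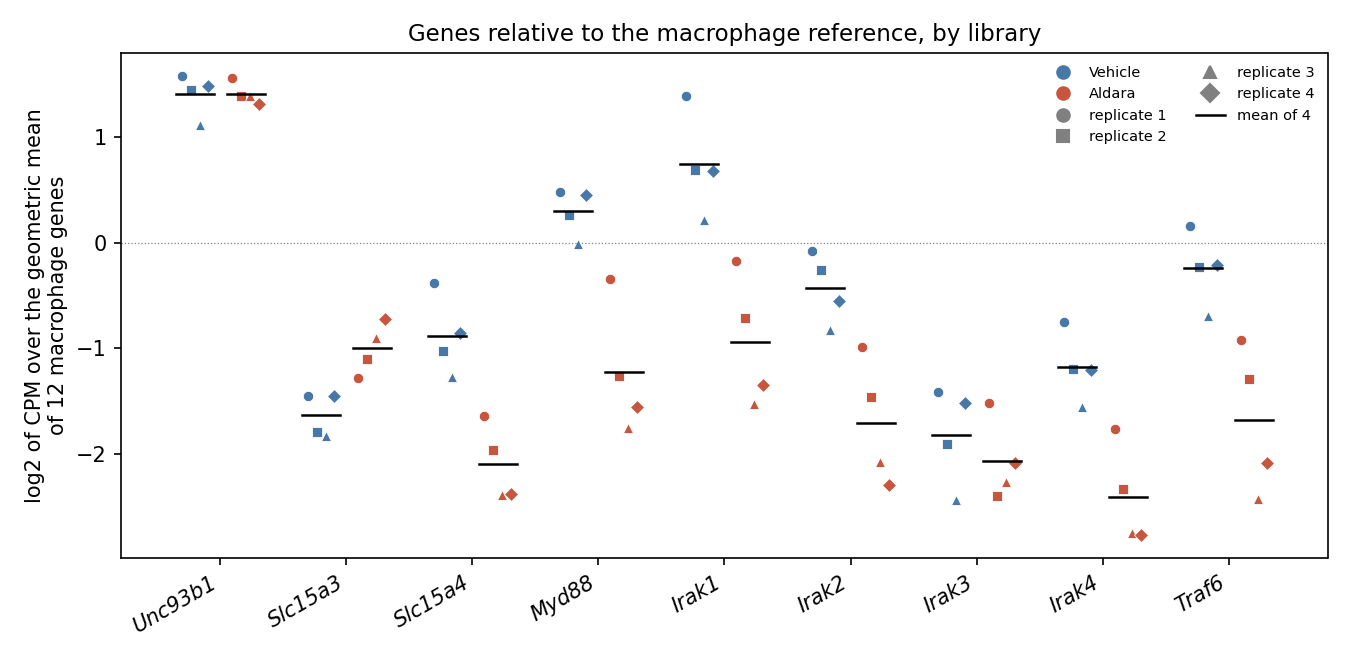
Log2 ratio of the CPM of each gene to the geometric mean CPM of 12 macrophage genes, by library, with Vehicle in blue, Aldara in red and a bar at the mean of 4. Unc93b1 and Irak3 overlap between groups, Slc15a3 lies higher in Aldara and the other 6 genes lie lower.

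**Figure D4:**
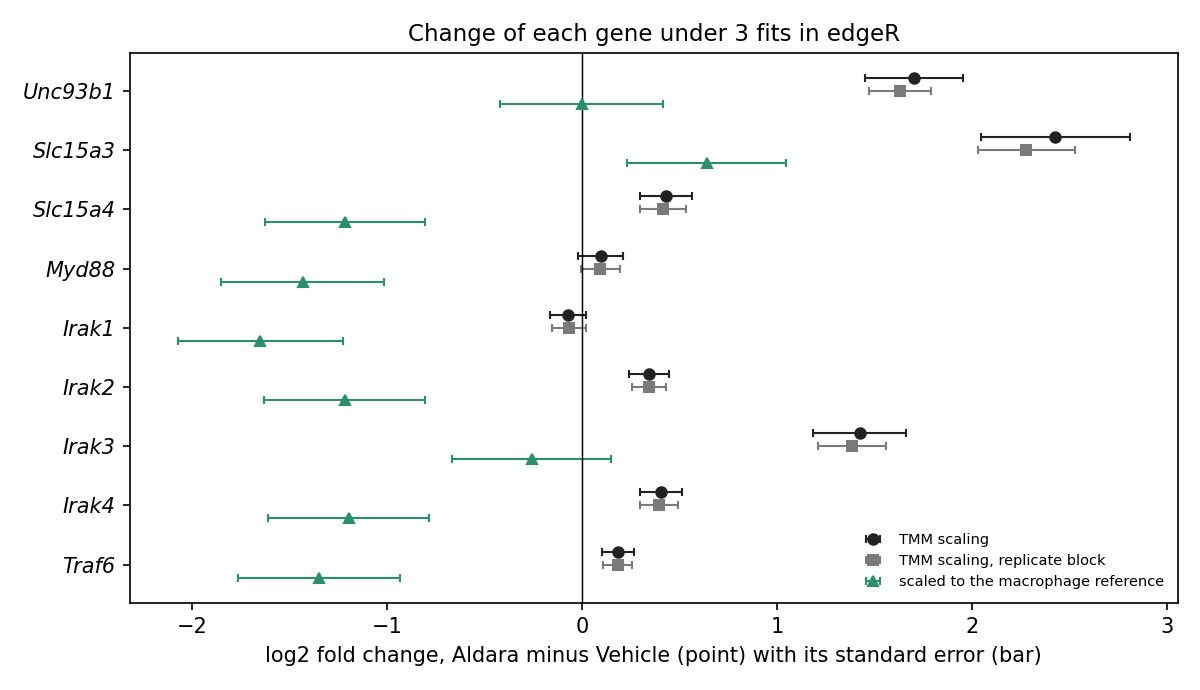
Log2 fold change of each gene (Aldara minus Vehicle, point) with its standard error (bar) under TMM scaling, under TMM scaling with the replicate block and scaled to the macrophage reference. The first pair of fits nearly coincide, and the reference moves every gene down by a similar amount, leaving Unc93b1 near 0 and Slc15a3 at 0.64.

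Of the endosomal receptors that these genes serve, 3 of 5 rose and none fell, with a median log2 fold change of 1.39. Counts of this and the following lists read against the 6.98% of all tested genes that rose and the 3.86% that fell. The DNA sensor Tlr9 rose from 9.32 ± 2.04 to 40.0 ± 18.8 CPM, by 2.09 on the log2 scale (SE 0.35, edgeR adjusted p = 0.00767). Tlr13, a sensor of bacterial ribosomal RNA, rose by 1.71 and Tlr8 by 1.39 on the log2 scale (adjusted p = 0.0124 and 0.0136), and the groups did not overlap for these 3 genes. Without the filter on low counts, Tlr13 (1.70, adjusted p = 0.0645) and Tlr8 (1.38, adjusted p = 0.0662) kept their size and lost their calls. Tlr7, the receptor for imiquimod, was at 19.0 ± 6.42 and 38.9 ± 18.5 CPM in overlapping groups (log2 fold change 1.02, edgeR adjusted p = 0.118, and 0.00209 with the replicate block or 0.0332 without Aldara 1). Tlr3, which signals through Ticam1 in place of Myd88, was at 23.8 ± 1.56 and 24.3 ± 1.64 CPM (log2 fold change 0.034, adjusted p = 0.866).

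Among 15 listed chaperones and sorting factors of these receptors, 14 were tested, and the median log2 fold change was 0.02. Of the 14, 2 rose and none fell, against 6.98% and 3.86% of all tested genes. Rab7b, a small GTPase of late endosomes, rose from 48.8 ± 5.37 to 125.1 ± 48.3 CPM (log2 fold change 1.36, edgeR adjusted p = 0.0117, but 0.0681 without the filter). Cnpy3, a co-chaperone that folds TLRs, rose by 0.43 (adjusted p = 0.0354), and this call was lost without any of Vehicle 1 to 4, Aldara 3 or Aldara 4 (adjusted p of 0.0586 to 0.112). Hps4, a subunit of a lysosome biogenesis complex, was at 26.0 ± 2.12 and 32.0 ± 1.51 CPM (log2 fold change 0.30, adjusted p = 0.0557). The 12 tested genes not called included the listed AP-3 subunits, the chaperone Hsp90b1 and the lysosomal GTPase Arl8b, which were looked at after their values were seen.

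Proteases that cleave endosomal receptors in the endolysosome had 2 risen genes of 5, none fallen and a median of 0.63. With the replicate block 4 of 5 were called risen, against 9.21% of all tested genes. The asparagine endopeptidase Lgmn rose from 170 ± 15.9 to 479 ± 191 CPM (log2 fold change 1.496, edgeR adjusted p = 0.0095, but 0.057 without the filter). Cathepsin S (Ctss) rose from 94.9 ± 31.9 to 257 ± 105 CPM (1.44, adjusted p = 0.0251), which missed the threshold without Vehicle 1, 2 or 4 or Aldara 3 or 4 (adjusted p of 0.0641 to 0.0873) or without the filter (0.126). Cathepsin B (Ctsb) had a log2 fold change of 0.63 (adjusted p = 0.0775, 0.0117 with the block and 0.0168 without Aldara 1).

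Of the 5 other adaptors that carry a TIR domain, 3 rose, none fell and the median was 0.49. Pik3ap1 (BCAP), which links TLRs to phosphoinositide 3-kinase, rose from 32.5 ± 2.28 to 203 ± 88.0 CPM, the largest change among these adaptors (log2 fold change 2.64, SE 0.30, edgeR adjusted p = 0.00222). Ticam2 (TRAM), a bridging adaptor of TLR4, rose by 1.66 (adjusted p = 0.0165, but 0.0503 without Vehicle 2, 0.0526 without Aldara 4 and 0.0804 without the filter). Ticam1 (TRIF) rose by 0.49 (adjusted p = 0.0458), with overlapping groups, and passed only in the fit of all 8 libraries and the one without Aldara 1 among the fits that left out a library (adjusted p of 0.00994 to 0.135).

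Receptors outside the endosomal set that use Myd88 moved in both directions: of 10 tested, 4 rose and 1 fell, with a median of 0.33. Tlr1 rose from 4.31 ± 0.627 to 28.6 ± 13.6 CPM (log2 fold change 2.72, edgeR adjusted p = 0.00318). Tlr6, which like Tlr1 pairs with Tlr2 to sense lipopeptides, rose by 1.63 (adjusted p = 0.00918). The lipopolysaccharide receptor Tlr4 rose by 0.62 (adjusted p = 0.0183, but 0.0526 without Vehicle 2 and 0.0534 without Aldara 2). The gene that fell, named after its values were seen, was Il1rl1, the interleukin-33 receptor, from 4.99 ± 1.48 to 2.08 ± 1.02 CPM (log2 fold change -1.26, adjusted p = 0.0458, and 0.075 with the replicate block). The number of fallen genes over all pathway lists was 0 without Vehicle 1, 2 or 4 or Aldara 2 or 3, so this call rests on those libraries. With the replicate block, 2 other receptors of this list were called fallen and 4 risen, against 6.14% and 9.21% of all tested genes.

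Downstream of Traf6, 4 of 15 genes rose and none fell, with a median of 0.05. The transcription factor Irf5, which Myd88 signalling activates, rose from 23.3 ± 2.36 to 70.2 ± 30.3 CPM (log2 fold change 1.59, edgeR adjusted p = 0.0112, but 0.0671 without the filter). Irf7, the interferon regulator of the same complex, rose by 0.50 (adjusted p = 0.0164, but 0.0514 without Aldara 3 and 0.0591 without Aldara 4). The p38 kinase Mapk14 rose by 0.46 (adjusted p = 0.0336), a call kept only without Aldara 1 among the fits with a library left out (adjusted p of 0.0185 to 0.106). With the replicate block 6 of these 15 genes were called risen, against 9.21% of all tested genes.

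Inhibitors and modifiers of the Myd88 pathway had 4 risen genes of 12, none fallen and a median of 0.21. The phosphatases Inpp5d (SHIP1) and Ptpn6 (SHP-1) rose by 1.58 and 1.30 on the log2 scale (edgeR adjusted p = 0.0115 and 0.0102, but 0.0688 and 0.0591 without the filter). Peli1, a ubiquitin ligase that binds IRAK proteins, rose by 0.29 (adjusted p = 0.0429), and the adjusted p ran from 0.044 to 0.146 over the fits with 1 library left out, with Aldara 1 the library whose removal kept the call, and was 0.134 without the filter. Among relatives of the 9 genes, with a median of 0.18, 1 of 6 tested rose, against 6.98% of all tested genes. That gene was Traf5 (log2 fold change 0.49, adjusted p = 0.0478), whose call was lost without each library in turn (adjusted p of 0.0569 to 0.128) with the block (0.0581) and without the filter (0.123). Traf1 was at 10.8 ± 0.988 and 15.7 ± 3.75 CPM (log2 fold change 0.54, adjusted p = 0.0573, 0.0368 with the block and 0.0363 without Aldara 1) and Traf2 at 57.1 ± 5.04 and 62.3 ± 2.33 CPM (0.13, adjusted p = 0.388).

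Over the 8 lists together, 23 of 72 tested genes rose and 1 fell, with a median log2 fold change of 0.23, against the 6.98% and 3.86% of all tested genes and their median of 0.0058. With the block these counts were 28 and 2, against 9.21% and 6.14% of all tested genes. Leaving out 1 library gave 12 to 25 risen genes: 15 without Vehicle 1, 12 without Vehicle 2, 15 without Vehicle 3, 14 without Vehicle 4, 15 without Aldara 2, 13 without Aldara 3 and 12 without Aldara 4, against 25 without Aldara 1. Over all tested genes, the fits with 1 library left out gave 629 to 1405 risen genes. With upper-quartile scaling the share of rising genes among all calls went from 64.4% (1171 rose and 647 fell) to 49.7% (979 rose and 990 fell).

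**Figure D5:**
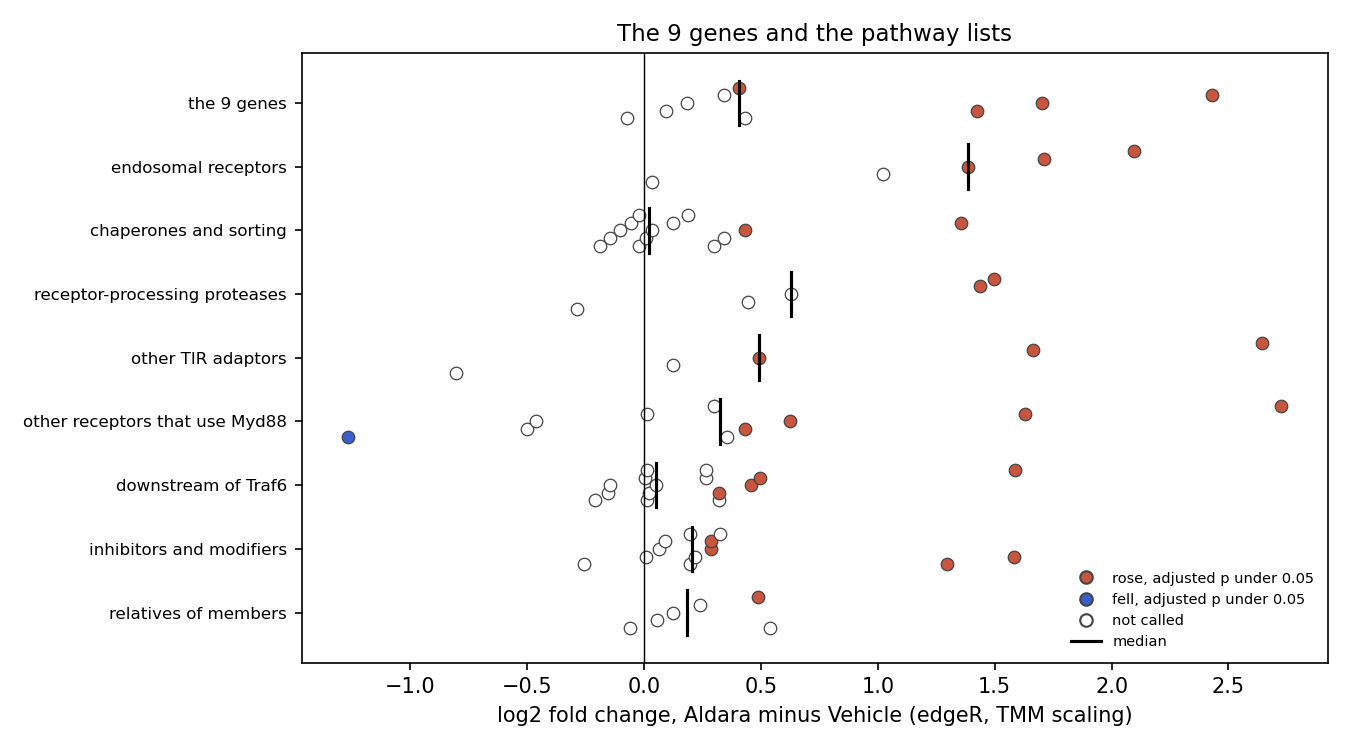
Log2 fold change (Aldara minus Vehicle, TMM scaling) of the 9 genes and of the tested genes of 8 pathway lists, with genes that rose in red, the gene that fell in blue, genes not called open and list medians as bars. Changes above 1 on the log2 scale occur among the 9 genes and in every list but the relatives, the largest pathway change is that of Tlr1 at 2.72, and the list of chaperones and sorting factors centres on 0.02.

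Profiles over the 8 libraries were compared by the mean absolute distance of log2 CPM, each centred on its own mean, over 10972 genes with a mean of at least 5 CPM. Nearest to Unc93b1 was Sirpa, the inhibitory myeloid receptor for CD47 (distance 0.07), then the glycogen phosphorylase Pygl (0.08) and the kinase Ikbke (0.09). Sirpa went from 68.6 ± 5.34 to 228 ± 93.3 CPM. Nearest to Slc15a3 were Slamf7, a leukocyte surface receptor (0.10), Cyth4 (0.11) and the haematopoietic exchange factor Vav1 (0.11). Nearest to Myd88 were Csrnp1 (0.06), Tmem11 (0.07) and Nt5c3 (0.07), none of which had a group difference larger than its spread. These distances describe 8 libraries in 2 groups, so any gene with a like group difference comes near.

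Some markers of other cell types moved with the treatment. Csf3r, a neutrophil receptor that macrophages also express, rose from 8.73 ± 2.76 to 37.6 ± 16.9 CPM, whereas the neutrophil gene Ly6g was at 0 in all 8 libraries and S100a8, S100a9 and Retnlg were under 1 CPM in each. Of 5 fibroblast genes, 4 fell, with a summed level of 167 to 437 CPM in Vehicle and 52.2 to 109 CPM in Aldara. Of 4 plasmacytoid dendritic cell genes, 3 were under 1 CPM in every library, and the 1 that could be tested fell. Their summed levels were 2.70 to 7.003 CPM in Vehicle and 1.39 to 2.13 CPM in Aldara. For 4 adipocyte genes, of which 2 rose, they were 1.55 to 3.24 and 4.10 to 7.69 CPM. No call was made among the genes of T and NK cells, conventional dendritic cells or endothelium, of which 1 of 5, 3 of 5 and 4 of 4 passed the filter and could be tested. The part of these cells in the values above was not tested.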

How the data were processed

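The table deposited by the authors holds whole-number read counts per gene for 8 libraries. The submitters' processing notes name the build mm10 and the tools featureCounts 1.5.0-p3, HISAT2 2.0.5 and, without a version, DESeq2. The treatment of overlapping genes in counting is not given in the sources used here. Identifiers were matched to symbols, lengths and positions in GENCODE M21 (GRCm38), which names 52073 of 56748 rows. Some identifiers are more recent than it.

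Counts were tested with edgeR 4.0.16 in R 4.3.3 (filterByExpr, TMM factors, robust quasi-likelihood F test, Benjamini-Hochberg over 16780 genes, threshold 0.05), and the steps were tested on simulated data. SEs derive from the F statistic. In a separate fit, libraries were scaled to the macrophage reference. Log2 ratios used counts plus 2. Ratio tests were two-sided exact permutation tests with SciPy 1.17.1. Alternatives were DESeq2 1.42.0, other scalings, no filter, a replicate block and leaving out each library.

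Replicate numbers were taken as pairing the libraries, since deviations from the group means correlated within each number (0.228, 0.108, 0.167 and 0.218). The labels name no pairing, so the block was chosen from these same data. The rule for named genes took all 9 genes, every endosomal receptor, the 3 smallest p-values of each list, 6 markers and the nearest profiles. The 9 genes and all lists were chosen with earlier results of these data known. Intervals are not given for counts, and errors cover the spread between libraries. No 2 libraries agreed within sampling noise.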

Additional observations from a re-analysis of the deposited data

Results flagged for a closer look

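One value stood apart among the 102 groups of 4 library values that were examined: in Vehicle, the Unc93b1 level of library 1 was 143 CPM against 176 to 182 CPM in the others. Its gap to the nearest library was 0.854 of the whole range of the group, above Dixon's 95% critical value for 4 samples. Chance alone sets apart about 1 in 20 groups.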

How the results depend on the processing

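Unc93b1, Slc15a3 and Irak3 kept their calls under all 13 alternatives, with adjusted p of at most 0.0306, 0.0404 and 0.0412. The number of risen genes among the 9 was 3 with upper-quartile scaling, 5 with DESeq2, 6 with the replicate block and 3 to 5 with 1 library left out. The replicate block changed the calls of Slc15a4, Irak2, Tlr7, Ctsb, Traf1, Traf5 and Il1rl1 and of Slc15a3 relative to the reference, and no other call of the 9 genes or the named pathway genes. Upper-quartile factors also ended the calls of Mapk14, Peli1, Ticam1 and Traf5. Testing without the filter ended those of Ctss, Inpp5d, Irf5, Lgmn, Peli1, Ptpn6, Rab7b, Ticam2, Tlr8, Tlr13 and Traf5 (adjusted p of 0.057 to 0.134). Small values turned sign. The log2 fold change of Irak1 was 0.011 without Vehicle 1 and -0.12 to 0.011 over the fits with 1 library left out. That of Tlr3 was -0.021 with upper-quartile factors and -0.0029 to 0.078 with 1 library left out, the lowest without Aldara 2. Relative to the macrophage reference, Unc93b1 was at 0.0055 with the replicate block, and at -0.089 to 0.057 with 1 library left out. The log2 ratio difference of Irak4/Irak2 ranged from -0.021 (without Aldara 4) to 0.11.

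Of the 72 pathway genes, 10 rose without the filter on low counts and 12 to 25 with 1 library left out. Fallen pathway genes numbered 3 with DESeq2, upper-quartile factors or no filter, 2 with the block and 0 to 2 with 1 library left out. Relative to the reference, the number of higher genes among the 9 was 1 with the block and by the exact test of the ratios, and 0 to 1 with 1 library left out.

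With the replicate block as a sign-flip test, none of the 6 called ratios passed (adjusted p = 0.146), at the same differences of 1.84 (Slc15a3/Slc15a4), 1.44, 1.03 and 0.98 (Irak3 to Irak1, Irak2 and Irak4), 0.41 (Irak2/Irak1) and 0.46 (Irak4/Irak1). With 1 library left out (adjusted p = 0.0667 at the least) they ran from 1.66 to 2.09, 1.31 to 1.62, 0.84 to 1.22, 0.86 to 1.11, 0.31 to 0.48 and 0.38 to 0.51. The cause of these changes was not tested, except that the smallest p grows with fewer libraries. Over all genes, 1171 rose and 647 fell. These counts were 1540 and 1198 with DESeq2, 979 and 990 with upper-quartile factors, 945 and 693 without the filter, 1546 and 1030 with the block, and 629 to 1405 and 323 to 664 with 1 library left out.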
